A study of Mus musculus with 20 samples.

Results

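The 10 cardiac muscle genes described here are Myl2, Myl3, Myl7, Myh6, Actc1, Tnnt2, Tnni3, Ryr2, Smpx and Nppa, taken from 12393 genes that have a probe set naming no other gene. They were chosen by name as genes of heart muscle, and every probe set whose only gene symbol is a member was used, 15 of the 20380 such probe sets on the array. RNA of left lung lobes from mouse embryos on a C57Bl6 background was hybridised to Affymetrix Mouse430A_2 arrays, with 1 animal per array and 20 arrays in all. The labels give 4 groups of 5 animals. The E18.5 GR ablation group and the E16.5 GR ablation group (genotype GRCol1-Cre) lack the glucocorticoid receptor, GR, in mesenchymal cells. They are set against the E18.5 control group and the E16.5 control group (genotype GR flox), which carry the floxed receptor gene and are labelled as expressing GR in mesenchyme. Cre was driven by a bacterial artificial chromosome with the collagen type (I)-alpha-2 locus, so recombination follows that promoter, while RNA was taken from the whole lobe. The labels do not give litters, so p-values measure the spread between these animals. The comparison asks what loss of the receptor in mesenchyme does to the lobe before and during the late fetal rise of glucocorticoids.

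Heart muscle contracts through sarcomeres, in which thick filaments of myosin pull on thin filaments of actin. Myosin heavy chains carry the motor and light chains stiffen and tune it, and the troponin complex on the thin filament lets calcium switch contraction on. Calcium is released from the sarcoplasmic reticulum through the ryanodine receptor. In mice and other rodents the wall of the pulmonary veins holds a sleeve of cardiac muscle that continues from the left atrium into the lung, so heart muscle transcripts can be a normal part of lung RNA. The heart lies against the lung, and a dissection can also carry other tissue with it. In a whole lobe, fewer cells of a type and less RNA per cell cannot be told apart.

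The ablated gene itself was lower in every mutant animal than in every control of its stage. Nr3c1, which encodes GR, averaged a log2 value of 7.80 ± 0.19 in E18.5 GR ablation lungs and 9.42 ± 0.22 in E18.5 controls (SD, n = 5 each), and 7.07 ± 0.45 in E16.5 GR ablation lungs and 8.78 ± 0.22 in E16.5 controls. The probe set was not placed relative to the floxed exon. Values below a log2 value of 4 are called dim here. Of 10 lung-defining genes, 9 were above it on at least 5 arrays, with Sftpc, the type II cell surfactant protein, at 14.6 or more on every array. Aqp5 was dim on all E16.5 arrays, and Nkx2-1 was dim on all 20. A dim probe set is therefore not read here as absent RNA. By skeletal muscle genes 3 arrays stood apart, with Acta1, skeletal alpha-actin, at 10.21 in E18.5 control 3, 8.14 in E18.5 control 4 and 7.58 in E16.5 GR ablation 4, and at most 3.27 on the other arrays. E18.5 control 3 also lay lower than the other controls of its stage on the axis that runs over all genes tested from the E16.5 control mean (0) to the E18.5 control mean (1), at 0.704 against 1.02 to 1.09 for the other 4. All E18.5 GR ablation lungs lay low on this axis too, at 0.452 to 0.769, a range that holds E18.5 control 3. Whether this position bears on the member differences was not tested. Member values without these 3 arrays are given for the E18.5 comparison and, for Ryr2, Myl2 and Myl3, for the interaction.

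In the window of 150 bases before the transcript start (RefSeq, build GRCm38.p6), 3 of the members hold a CArG box, the letters bound by serum response factor in many muscle genes, and 3 hold CATTCC, the M-CAT letters bound by TEAD factors. They are printed here together with Smpx, which holds neither. Neither motif lies in this window of Myl2, Myh6, Tnni3, Ryr2 or Nppa either. A tie between these letters and the changes was not tested. Capitals mark the CArG box and M-CAT, and each sequence runs 5′ to 3′ on the strand of the gene.
Actc1, chr2:114052876-114053025, minus strand: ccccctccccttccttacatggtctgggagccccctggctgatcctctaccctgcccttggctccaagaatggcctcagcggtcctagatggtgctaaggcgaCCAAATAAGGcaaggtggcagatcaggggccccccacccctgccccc
Myl7, chr11:5898783-5898932, minus strand: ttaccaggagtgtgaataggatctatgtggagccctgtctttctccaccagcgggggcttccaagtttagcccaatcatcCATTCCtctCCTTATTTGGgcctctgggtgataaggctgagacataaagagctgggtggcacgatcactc
Myl3, chr9:110763528-110763677, plus strand: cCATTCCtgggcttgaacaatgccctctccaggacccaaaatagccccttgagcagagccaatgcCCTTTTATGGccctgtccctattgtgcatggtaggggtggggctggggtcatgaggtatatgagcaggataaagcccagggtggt
Tnnt2, chr1:135836184-135836333, plus strand: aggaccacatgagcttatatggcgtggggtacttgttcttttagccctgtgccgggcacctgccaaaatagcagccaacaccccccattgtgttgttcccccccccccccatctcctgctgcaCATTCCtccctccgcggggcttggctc
Smpx, chrX:157698823-157698972, plus strand: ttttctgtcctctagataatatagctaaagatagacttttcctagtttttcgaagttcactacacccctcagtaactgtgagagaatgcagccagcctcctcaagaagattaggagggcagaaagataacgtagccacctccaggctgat

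All 10 members had a promoter entry, in 12 windows, since Myl2 and Tnnt2 have 2 starts each. Over 250 bases before the start and both strands, a CArG box lay in 3 of the 12 windows (Actc1, Myl7 and Myl3) and in 1.47% of the 32851 windows of the same length over all genes. M-CAT lay in 4 of the 12 (Myl3, Myl7, Tnnt2 and Myh6) and in 12.6% of all windows. In Myl7 the M-CAT letters ended at 65 bases and the CArG box began at 61 bases before the start. The letters AGATAA, bound by factors of the Gata family, lay in 3 of the 12 and in 9.99% of all windows, and Smpx held it at 2 places. TATAAA lay in 2 of the 12 and in 12.4% of all, 1 of them next to the start of Nppa. A MEF2 site lay in none of the 12 and in 2.92% of all, and the palindromic glucocorticoid response element lay in none of the 12 and in 0.387% of all. No motif overlapped another in the member windows, and a match here is a run of letters only.

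**Figure D1:**
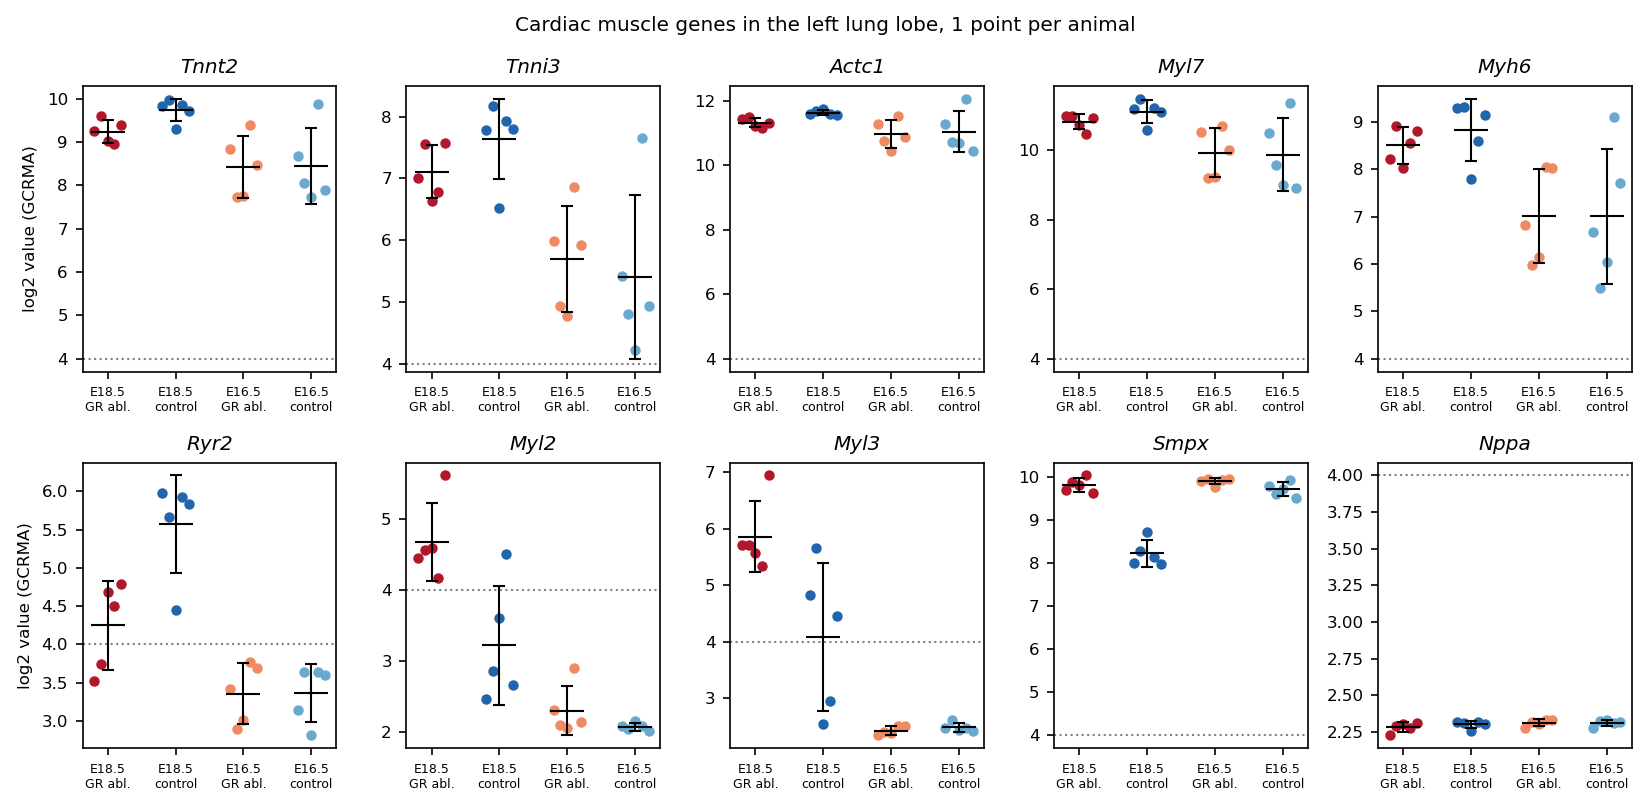
Log2 values of the brightest probe set of each cardiac muscle gene, 1 point per animal, with the mean and SD of 5 animals as bars, E18.5 GR ablation, E18.5 control, E16.5 GR ablation and E16.5 control from left to right. The dotted line is the dim threshold of 4, and each panel has its own axis. In E18.5 controls Smpx is below and Ryr2 above all the other groups but for 1 overlapping animal of Ryr2, Myl2 and Myl3 are highest in E18.5 GR ablation lungs, and the remaining sarcomere genes spread widely at E16.5.

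Of the 10 members, 9 passed the filter for testing, a log2 value above 4 in at least 5 of the 20 arrays, on their brightest probe set. Nppa, which encodes the atrial natriuretic hormone, lay between 2.23 and 2.33 on all arrays and was not tested. Of the 15 probe sets, 11 passed. Myl2, Myl3 and Ryr2 were above 4 on 6, 8 and 8 arrays, all of them at E18.5, so that Myl2 and Myl3 passed only with the help of the E18.5 GR ablation lungs and Ryr2 only with that of the E18.5 controls, the groups where they are high. Their calls at E18.5, between the stages and in the interaction rest in part on that selection. Their adjusted p without a filter is given for the E18.5 comparison. Dim on all arrays were that of Nppa, the third of Myl3 (at most 2.44), the second of Myh6 (2.80 to 3.17) and the second of Ryr2 (2.08 to 2.15).

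At E18.5 the mutant lungs did not shift these genes one way. Myl2 and Myl3, the ventricular regulatory and essential light chains of myosin, and Smpx, a small protein of striated muscle, rose in E18.5 GR ablation lungs, and Ryr2, the cardiac calcium release channel, fell. The 5 other sarcomere genes tested (Myh6, Myl7, Actc1, Tnnt2 and Tnni3) had differences of -0.53 to -0.29 and did not pass. In all, 3 members were called higher and 1 lower of the 9 tested, at a Benjamini-Hochberg adjusted p under 0.05 in limma, against 34.5% of all 8068 genes tested in either direction (18.6% higher and 15.9% lower). The median difference was -0.32 over the 9 members and 0.03 over all genes. The share of members called is near that of all genes, and 3 of the 4 called members are those that passed the filter through the group where they are high.

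Smpx encodes a small protein linked to the costameres of striated muscle. Its log2 values were 9.69, 9.88, 9.81, 10.04 and 9.62 in E18.5 GR ablation lungs, against 7.996, 8.28, 8.72, 8.14 and 7.98 in E18.5 controls. The groups did not overlap, and the highest control was E18.5 control 3. The difference was 1.58 on the log2 scale (SE 0.12), or 2.99-fold, with a limma adjusted p of 3.26e-08. Within the 9 members, Smpx and Actc1 were those whose E18.5 groups did not overlap, 1 higher and 1 lower, against 17.4% of all genes (8.27% higher and 9.13% lower).

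Myl2, the regulatory light chain of ventricular myosin, had log2 values of 4.46, 4.57, 4.60, 4.18 and 5.62 in E18.5 GR ablation lungs, against 2.47, 2.87, 3.61, 4.51 and 2.66 in E18.5 controls. All 5 mutants were above the dim threshold, as was only E18.5 control 4 among the controls, so the floor of the array limits the size of the rise. The difference was 1.46 (SE 0.31; limma adjusted p 0.00157, or 0.00356 with no filter). The higher pair of controls, 3 and 4, are also the E18.5 controls with Acta1 above 4. Myl2 is also known from slow skeletal muscle, and whether such RNA bears on these values was not tested. Without the 3 arrays with Acta1 above 4, an alternative added after seeing the data, the difference was 2.02 (SE 0.22).

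Myl3, the essential light chain that pairs with it, had log2 values of 5.71, 5.72, 5.58, 5.35 and 6.94 in E18.5 GR ablation lungs, against 4.82, 5.66, 2.55, 2.95 and 4.46 in E18.5 controls. Here the controls fell into a wide range, and E18.5 control 2 lay within the range of the mutants. The difference was 1.78 (SE 0.42; limma adjusted p 0.00360, or 0.00757 with no filter). Controls 3 and 4, the highest for Myl2, were the lowest for Myl3, and without the 3 arrays with Acta1 above 4 the difference was 0.88 (SE 0.28; adjusted p 0.0231). A second probe set of Myl3 gave 0.70 (SE 0.23), with an adjusted p of 0.0237 over the 13510 probe sets that passed. The probe sets disagreed on single animals: E18.5 control 4 was at 2.95 on the first and at 4.34 on the second, where it was the highest control.

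Ryr2 ran the other way. Its log2 values were 3.52, 3.74, 4.69, 4.51 and 4.78 in E18.5 GR ablation lungs, against 5.98, 5.67, 4.45, 5.92 and 5.84 in E18.5 controls. Of the 5 controls, 4 were above all mutants, and the overlap came from E18.5 control 3. The difference was -1.32 (SE 0.30; limma adjusted p 0.00245, or 0.00529 with no filter), and since 2 of the 5 mutants were dim its size is limited by the floor. Without the 3 arrays with Acta1 above 4 it was -1.58 (SE 0.28).

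The other thick filament genes were Myh6, the alpha heavy chain of atrial and adult mouse heart myosin, and Myl7, the atrial regulatory light chain. Myh6 had log2 values of 8.21, 8.92, 8.02, 8.54 and 8.80 in E18.5 GR ablation lungs, against 9.29, 9.32, 7.78, 8.59 and 9.15 in E18.5 controls. Myl7 had 10.97, 10.99, 10.71, 10.48 and 10.92 in E18.5 GR ablation lungs, against 11.18, 11.47, 10.59, 11.20 and 11.09 in E18.5 controls. In both genes the lowest control was E18.5 control 3. The Myl7 groups overlapped through it alone, and the Myh6 groups also through E18.5 control 4. The differences were -0.33 for Myh6 (95% interval -1.49 to 0.84) and -0.29 for Myl7 (-1.10 to 0.52), and neither passed. Leaving out 1 array moved Myh6 between -0.59 (without E18.5 control 3) and -0.20 (without E18.5 control 2), still not called. Without the 3 arrays with Acta1 above 4, Myh6 was at -0.75 (SE 0.62) and Myl7 at -0.43 (SE 0.45).

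The thin filament genes were also below the threshold for a call. Actc1, cardiac alpha-actin, had log2 values of 11.44, 11.49, 11.21, 11.15 and 11.30 in E18.5 GR ablation lungs, against 11.60, 11.67, 11.74, 11.60 and 11.57 in E18.5 controls. Every mutant was below every control, yet the difference of -0.32 (SE 0.24) did not pass with the spread shared over all 4 groups (limma adjusted p 0.316). Tnnt2, the cardiac troponin that ties the complex to tropomyosin, had 9.26, 9.61, 9.02, 8.95 and 9.38 in E18.5 GR ablation lungs, against 9.84, 9.97, 9.31, 9.85 and 9.73 in E18.5 controls. Only E18.5 control 3 came within the mutants' range, and the difference was -0.49 (SE 0.35; adjusted p 0.290), with -0.51 on the second probe set.

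Tnni3, the inhibitory troponin of adult heart, had log2 values of 7.01, 7.56, 6.64, 6.79 and 7.57 in E18.5 GR ablation lungs, against 7.78, 8.17, 6.52, 7.93 and 7.79 in E18.5 controls, and differed by -0.53 (95% interval -1.60 to 0.55). It was at -0.81 without E18.5 control 3 and at -0.39 without E18.5 control 2. Without the 3 arrays with Acta1 above 4, Tnni3 was at -0.80 (SE 0.55), Tnnt2 at -0.60 (SE 0.38), Actc1 at -0.29 (SE 0.27) and Smpx at 1.72 (SE 0.11), and of these Smpx alone passed. Fitted on the 10 arrays of E18.5 alone, where the wide spread of E16.5 does not enter, Actc1 (SE 0.08; adjusted p 0.0143) and Tnnt2 (SE 0.15; adjusted p 0.0335) passed as lower, in addition to the 4 called members, while Tnni3, Myl7 and Myh6 still did not.

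**Figure D2:**
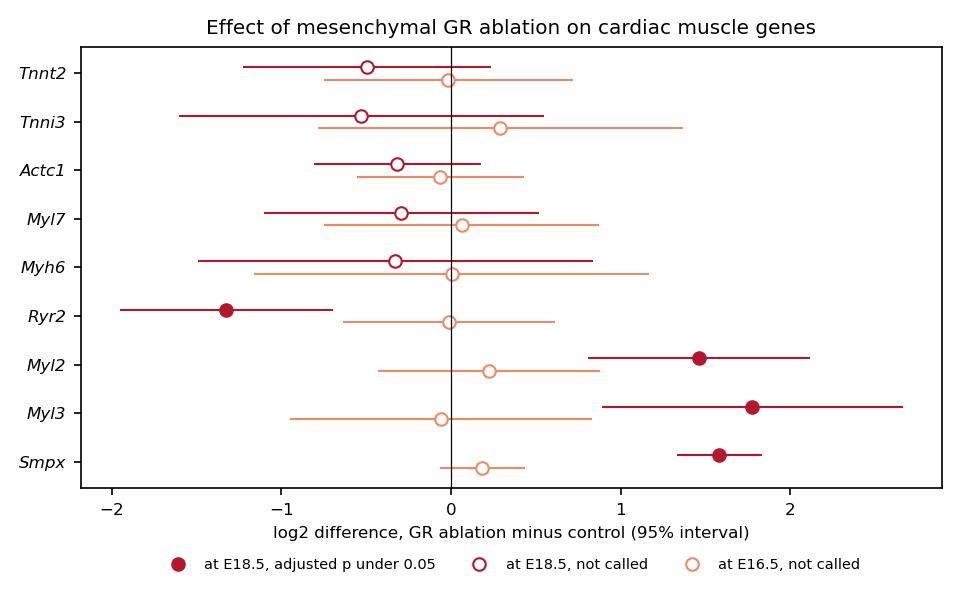
Log2 difference, GR ablation minus control, of the 9 cardiac genes tested, at E18.5 (upper point of each gene) and at E16.5 (lower point), with limma's 95% interval as a line. Filled points passed at an adjusted p under 0.05: Ryr2 at -1.32, Myl2 at 1.46, Myl3 at 1.78 and Smpx at 1.58, all at E18.5.

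At E16.5 no difference between mutant and control lungs passed for any of the 9 members, in limma or in any alternative tried, and 0.248% of all genes were called (20 genes, with 356 at an unadjusted p under 0.05). The median over the members was 0.00, against 0.01 over all genes. Smpx had log2 values of 9.90, 9.96, 9.78, 9.93 and 9.94 in E16.5 GR ablation lungs, against 9.79, 9.62, 9.73, 9.94 and 9.503 in E16.5 controls, overlapping groups that differed by 0.19 (95% interval -0.07 to 0.44). The intervals were wide elsewhere: -1.16 to 1.17 for Myh6 and -0.79 to 1.37 for Tnni3. By Xist and Y-linked genes, 5 of 5 E16.5 GR ablation animals and 1 of 5 E16.5 controls were female, so sex and genotype largely cannot be told apart at this stage. With sex in the fit, Smpx was at 0.30 (SE 0.14, limma adjusted p 0.666). The members whose sign changed with sex in the fit are given in the closing section.

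Between the stages, the control lungs gained most of these transcripts. All 9 members tested were called in E18.5 controls against E16.5 controls, 8 higher and Smpx lower, against 70.9% of all genes (35.3% higher and 35.5% lower). Myl2, Myl3 and Ryr2 passed the filter only through E18.5 arrays, so their calls as higher here rest in part on that selection. The median difference was 1.29 over the members and -0.01 over all genes. Ryr2 rose by 2.20 (SE 0.30; limma adjusted p 2.6e-06), with 5.98, 5.67, 4.45, 5.92 and 5.84 in E18.5 controls, against 3.14, 3.64, 2.81, 3.63 and 3.60 in E16.5 controls, where all 5 values were dim. Tnni3 rose by 2.23 (SE 0.51), Myh6 by 1.82 (SE 0.56), Myl3 by 1.60 (SE 0.42), Tnnt2 by 1.29 (SE 0.35), Myl7 by 1.24 (SE 0.39) and Myl2 by 1.14 (SE 0.31). The rise of Tnni3, the troponin that replaces a slow skeletal form as the heart matures, came with overlap, since E16.5 control 4 stood at 7.65 while the other 4 E16.5 controls were between 4.23 and 5.43.

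The rise of Actc1, 0.59 (SE 0.24; limma adjusted p 0.0308), was the weakest and lost its call under several alternatives given in the closing section. Smpx fell by 1.49 (SE 0.12; adjusted p 4.37e-09), and its E18.5 controls lay wholly below its E16.5 controls. The groups did not overlap for Ryr2, Myl2 and Smpx, 2 higher and 1 lower of the 9 members, against 51.2% of all genes (25.9% higher and 25.3% lower). In Myl2 and Myl3 all E16.5 controls were dim, at 2.01 to 2.16 and 2.42 to 2.63, so the size of these rises is limited by the floor.

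In mutant lungs, 5 of the 9 members were called between the stages, all higher at E18.5: Myl2, Myl3, Myh6, Tnni3 and Ryr2. The background was 56.2% of all genes (28.7% higher). Of the called members, Myl2, Myl3 and Ryr2 passed the filter only through E18.5 arrays, so their calls rest in part on that selection. Myl3 rose by 3.43 (SE 0.42) and Myl2 by 2.38 (SE 0.31), and in both genes all E18.5 GR ablation lungs lay above all E16.5 GR ablation lungs, as they did for 22.1% of all genes. Myh6 rose by 1.49, Tnni3 by 1.41 and Ryr2 by 0.89. Smpx had a difference of -0.10 (95% interval -0.35 to 0.16), and stayed between 9.62 and 10.04 in E18.5 GR ablation lungs and between 9.78 and 9.96 in E16.5 GR ablation lungs. Myl7 (0.89; limma adjusted p 0.0579), Tnnt2 (0.81; 0.0560) and Actc1 (0.34; 0.229) did not pass. With the 10 GR ablation arrays alone, Myl7 (adjusted p 0.0222) and Tnnt2 (0.0387) passed as higher.

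**Figure D3:**
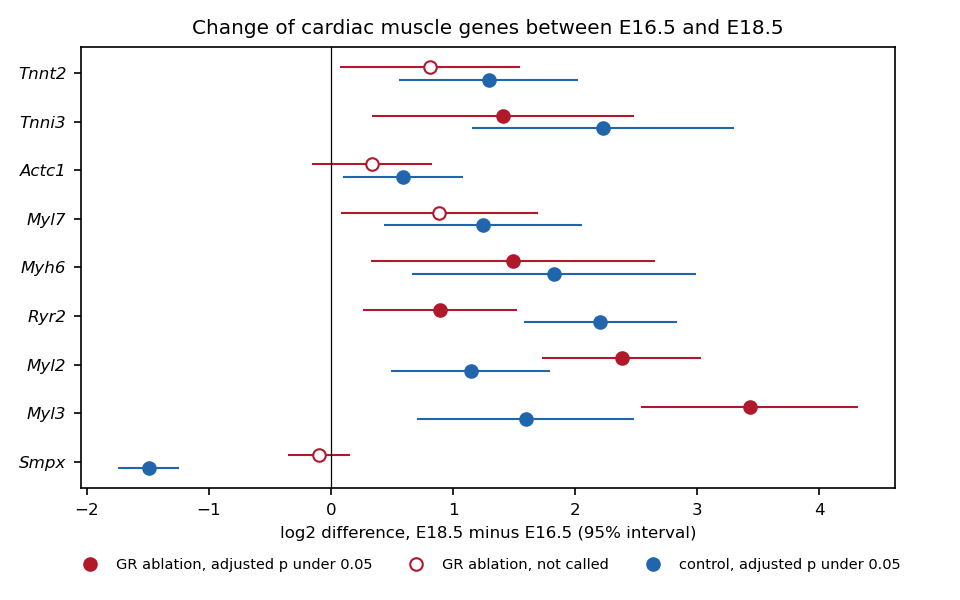
Log2 difference, E18.5 minus E16.5, of the 9 cardiac genes tested, in GR ablation lungs (upper point of each gene) and in controls (lower point), with limma's 95% interval as a line. Filled points passed at an adjusted p under 0.05. Smpx is at -1.49 in controls and at -0.10 in GR ablation lungs, and Ryr2 is at 2.20 in controls and at 0.89 in GR ablation lungs.

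Whether the effect of GR ablation differed between the stages was tested as an interaction, the E18.5 difference minus the E16.5 difference. Smpx passed, at 1.40 (SE 0.17; limma adjusted p 4.63e-05), as did 8.40% of all genes (3.62% with a positive value). Ryr2 (-1.31, SE 0.42; adjusted p 0.0603), Myl3 (1.83, SE 0.60; 0.0638) and Myl2 (1.24, SE 0.44; 0.0867) did not. The sex imbalance of the E16.5 groups enters this test, and at E18.5 2 of 5 GR ablation animals and 3 of 5 controls were female. With sex in the fit, Smpx still passed, at 1.25 (limma adjusted p 0.00123). Ryr2 was then at -0.996 (0.255), Myl3 at 1.60 (0.207) and Myl2 at 1.01 (0.281). Without the 3 arrays with Acta1 above 4, Ryr2 (-1.47; adjusted p 0.0199) and Myl2 (1.94; 0.000658) passed too, and Myl3 was at 0.96 (0.111). The other 5 members lay between -0.82 and -0.25 and did not pass.

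Apart from group differences, most of these genes varied far more between animals of 1 group than a typical gene did. The pooled within-group SD was 0.95 for Myh6, 0.88 for Tnni3, 0.72 for Myl3, 0.66 for Myl7, 0.60 for Tnnt2, 0.53 for Myl2, 0.51 for Ryr2 and 0.40 for Actc1, against a median of 0.18 over the genes tested. That places Myh6 at the 99.5 percentile and Actc1 at the 91.9 percentile of all tested genes, and Smpx, with an SD of 0.20, at the 59.0 percentile. For Myh6, Tnni3, Myl7, Tnnt2 and Actc1 the groups with the widest SD were the E16.5 controls, and for Myl2, Myl3, Ryr2 and Smpx the E18.5 controls. E16.5 control 4 was the highest of its group in 6 of 9 members and E16.5 GR ablation 4 in 8 of 9. Within the E16.5 controls the highest animal was 12.2-fold over the lowest for Myh6, 10.7-fold for Tnni3, 5.45-fold for Myl7 and 4.47-fold for Tnnt2. At E18.5, control 3 was the lowest of its group in 6 of 9.

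Of the 9 members, 5 varied together from animal to animal. With group means subtracted, over the 20 arrays, the correlation of each member with the mean of the other tested members was r = 0.95 for Tnni3, 0.95 for Tnnt2, 0.89 for Myl7, 0.81 for Actc1 and 0.73 for Myh6. It was 0.34 for Ryr2, 0.12 for Myl3, 0.09 for Myl2 and -0.04 for Smpx. These are descriptions over arrays that share their groups, and the arrays with the widest range carry much of them. The cells that express Smpx were not identified here.

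The genes that followed the members most closely were themselves mostly genes of heart muscle. Of 8059 non-members ranked by within-group r with the members' mean, the 10 most alike were Myl4 (r = 0.97), the atrial essential light chain; Tnnc1 (0.94), the calcium-binding troponin of heart and slow muscle; Ldb3 (0.93), a Z-disc protein; Fabp3 (0.90), the heart fatty acid carrier; and Cox7a1 (0.90), a muscle form of a cytochrome oxidase subunit. Tnni1 (0.89), the slow skeletal and fetal heart inhibitory troponin, followed, then Sln (0.86), which restrains the calcium pump, Timmdc1 (0.84), a mitochondrial assembly factor, and Ankrd1 (0.83) and Csrp3 (0.80), both mechanical stress proteins of the sarcomere. Of these, 8 of 10, and 12 of the top 30, are on the heart lists, which had 38 genes among those ranked. Leaving out the 2 arrays farthest from the median of the members' mean, E16.5 control 4 and E16.5 GR ablation 4, r was 0.93 for Myl4, 0.87 for Tnnc1 and 0.57 for Csrp3. The genes were chosen for a high r, so no p is given.

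**Figure D4:**
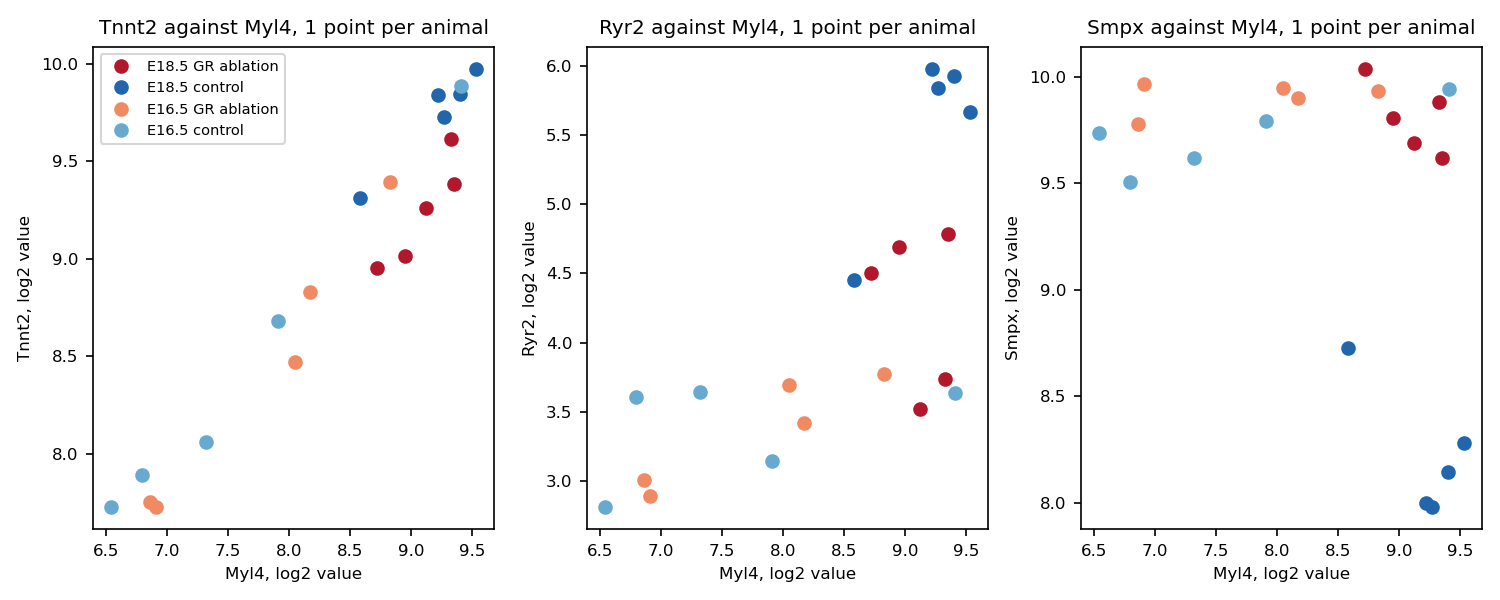
Log2 values of Tnnt2, Ryr2 and Smpx (y axes) against Myl4, the non-member most like the members (x axis), 1 point per animal, coloured by group. Tnnt2 follows Myl4 over all groups, with the E18.5 GR ablation lungs lower than E18.5 controls at like Myl4. Ryr2 is above 5.6 in 4 E18.5 controls alone, and Smpx is below 9 in the 5 E18.5 controls alone.

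Myl4 itself averaged 9.09 ± 0.27 in E18.5 GR ablation lungs and 9.20 ± 0.37 in E18.5 controls (SD, n = 5 each), a difference of -0.11 (SE 0.44) that did not pass. With Myl4 as a covariate, an alternative added after seeing the data with a gene picked for its likeness, Smpx, Myl2, Myl3 and Ryr2 kept their calls at E18.5, at 1.59, 1.48, 1.80 and -1.29. Tnnt2 (-0.41, SE 0.07; limma adjusted p 0.000508) and Tnni3 (-0.41, SE 0.15; 0.0427) then passed as lower in E18.5 GR ablation lungs. Since Myl4 was picked for following these genes on the same arrays, their spread in this fit is small by that choice. Their passing is therefore no test of a fall. Between the stages in controls, the count of called members was 2 with this covariate (Ryr2 and Smpx), and Tnnt2 was at 0.03.

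Other heart genes were read from lists of sarcomere, calcium and excitation, energy metabolism and transcription factor genes. Of 15 other sarcomere genes tested, 1 rose and 5 fell in E18.5 GR ablation lungs against E18.5 controls, with a median difference of -0.59, where 18.6% of all genes rose and 15.9% fell; the same shares apply to the list counts at E18.5 that follow. The falls named by the rule were Tmod1 (-1.12, SE 0.20), which caps the thin filament, Actn2 (-0.997, SE 0.25), the Z-disc crosslinker, and Cryab (-0.75, SE 0.19), a small heat shock protein also made outside the heart. Tmod1 had 7.88, 7.91, 8.02, 7.65 and 8.03 in E18.5 GR ablation lungs, against 9.23, 9.19, 8.42, 9.14 and 9.13 in E18.5 controls, and the groups did not overlap. The riser was Fhl2 (0.61, SE 0.13), a LIM protein of muscle and other tissues, named after its value was seen, since the count was 1. Myh7, the beta heavy chain of the fetal mouse heart ventricle, was at -1.05 (SE 0.42; limma adjusted p 0.0596), and the probe set that Myh6 and Myh7 share was at -0.67 (SE 0.50).

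Of 6 calcium and excitation genes tested, none passed in E18.5 GR ablation lungs against E18.5 controls by limma; Casq2 and Atp2a2 had an unadjusted p under 0.05, and Sln had the largest difference (-1.15, SE 0.71). Of 6 energy metabolism genes, 2 fell and none rose. Pgam2, the muscle phosphoglycerate mutase, had 3.55, 3.92, 3.84, 3.20 and 4.35 in E18.5 GR ablation lungs, against 6.60, 6.47, 5.12, 6.06 and 6.95 in E18.5 controls, a difference of -2.47 (SE 0.35; adjusted p 4.27e-05). All E18.5 controls were above all mutants. Ckm, muscle creatine kinase, fell by 1.96 (SE 0.42) in E18.5 GR ablation lungs, again without overlap. Its values were 4.34 to 5.38 in these lungs, against 6.17, 6.82, 8.12, 7.36 and 5.86 in E18.5 controls. The highest were E18.5 controls 3 and 4, which had Acta1 above 4. Both Pgam2 and Ckm are also known from skeletal muscle, and whether such RNA bears on these differences was not tested.

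Of 9 heart transcription factors tested, 2 rose and 3 fell in E18.5 GR ablation lungs. Myocd (0.87, SE 0.23), the cofactor of serum response factor in heart and smooth muscle, and Mef2c (0.62, SE 0.10) rose, and Tbx3 (-0.40, SE 0.14) fell; all 3 are expressed in other lung cells too. Nkx2-5, Gata4, Tbx20, Hand1, Hand2 and Irx4, which mark heart muscle precursors and chambers, were dim on all 20 arrays, as were Nppb, Gja5 and Pln. Since the lung-defining Nkx2-1 was also dim on all 20, this does not show that their RNA is absent. Of the 5 atrial genes tested none was called, and of 5 ventricular genes 2 rose, which are Myl2 and Myl3.

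In E18.5 controls against E16.5 controls, 11 of the 15 other sarcomere genes rose and 1, Fhl2, fell (median 1.51), 5 of the 6 calcium genes rose and all 6 energy genes rose (median 2.34), where 35.3% of all genes rose and 35.5% fell. The examples by the rule were Ankrd1 (2.87, SE 0.59), Tmod1 (2.31, SE 0.20) and Myh7 (2.29, SE 0.42); Sln (3.73, SE 0.71), Casq2 (1.45, SE 0.39), the calcium store of the reticulum, and the potassium channel Kcnq1 (1.17, SE 0.16). Energy genes were led by Pgam2 (3.04, SE 0.35), Fabp3 (2.63, SE 0.60) and the glycogen phosphorylase Pygm (2.42, SE 0.27). Of the 9 transcription factors 3 rose and 2 fell: Myocd fell by 1.58 (SE 0.23), while Mef2a (0.91, SE 0.08) and Tbx3 (0.37, SE 0.14) rose. In the interaction, Pgam2 (-2.27, SE 0.49; limma adjusted p 0.00948), Tmod1 (-0.97, SE 0.28; 0.0390), Pdlim5 (-0.44, SE 0.13; 0.0460), a Z-disc LIM protein, and Mef2c (0.46, SE 0.14; 0.0450) passed among the genes of the 4 heart lists. These lists had 15, 6, 6 and 9 genes tested, and 8.40% of all genes passed in the interaction (3.62% with a positive value).

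**Figure D5:**
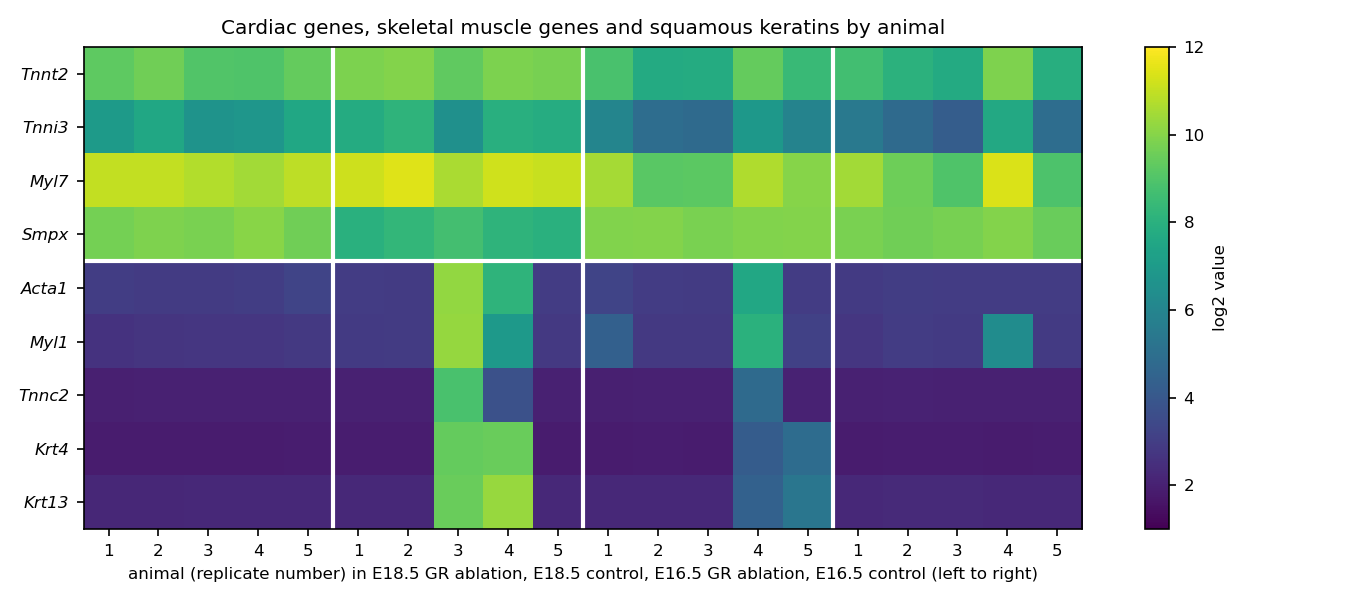
Log2 values by animal of 4 cardiac genes (top), skeletal muscle genes and squamous keratins (bottom), as colour from 1 to 12, with E18.5 GR ablation, E18.5 control, E16.5 GR ablation and E16.5 control from left to right. Acta1 and the keratins are bright in E18.5 controls 3 and 4, and Acta1 also in E16.5 GR ablation 4; Tnnt2 is high in all 20 animals.

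Skeletal muscle shares several of these genes, so its markers were read beside them. Of 27 skeletal muscle genes on the array 17 were dim on every array, among them the myogenic factors Myod1, Myog, Myf5, Myf6 and Pax7, and 3 passed the filter. Their summed linear level was 237 to 295 in E18.5 GR ablation lungs and 324 to 3706 in E18.5 controls, and 203 to 1042 in E16.5 GR ablation lungs and 186 to 503 in E16.5 controls. For the 10 cardiac members the sums were 5817 to 7403 in E18.5 GR ablation lungs and 6368 to 8455 in E18.5 controls, and 3200 to 6713 in E16.5 GR ablation lungs and 3118 to 9596 in E16.5 controls. Myl1, the fast skeletal light chain, was at 10.28 in E18.5 control 3, 6.91 in E18.5 control 4, 8.02 in E16.5 GR ablation 4 and 6.34 in E16.5 control 4, and did not pass in E18.5 GR ablation lungs against E18.5 controls (-2.43, SE 1.26). Tnnt1, the slow skeletal troponin T, rose by 1.33 (SE 0.26) in E18.5 controls against E16.5 controls. Within groups it followed the cardiac members (r = 0.78, rank 11 of the 8059 non-members). Its lowest E18.5 control was control 3, at 5.96, the array brightest for Acta1. The tissue behind its rise was not tested.

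The squamous keratins Krt13 and Krt4, found in oesophagus, marked the same arrays only in part. Krt13 was at 9.49 and 10.30 in E18.5 controls 3 and 4, at 4.40 and 5.31 in E16.5 GR ablation 4 and 5, and dim elsewhere. E16.5 GR ablation 5 had Acta1 at 2.95, so it stayed in the fit without the 3 arrays. The cardiac genes did not follow these markers in 1 direction. E18.5 control 3, the brightest for Acta1, was the lowest E18.5 control for Tnni3, Myh6, Myl7, Tnnt2, Ryr2 and Myl3 and the highest for Actc1 and Smpx. E16.5 GR ablation 4 was bright for Acta1 and the highest of its group in 8 of 9 members. E16.5 control 4, the highest E16.5 control for Tnni3, Myh6, Myl7, Tnnt2 and Actc1, had Acta1 at 2.96 and Krt13 at 2.28. Their part in the cardiac differences was not tested beyond the values without the 3 arrays. Of 10 smooth muscle genes tested, 1 was called in E18.5 GR ablation lungs against E18.5 controls, Ppp1r14a (-0.71, SE 0.07), and in E18.5 controls against E16.5 controls 3 rose and 1 fell, with Hhip at 0.65 (SE 0.16), Ppp1r14a at 0.62 (SE 0.07) and Acta2 at -0.42 (SE 0.14). Between these stages in controls, 35.3% of all genes rose and 35.5% fell. Of 6 mesothelial and epicardial genes tested 5 fell in E18.5 GR ablation lungs (median -0.84), and of 7 endocardial and valve genes 1 rose and 4 fell, where 18.6% of all genes rose and 15.9% fell. The first list holds Tcf21 and Krt19, and the second Emcn, Plvap, Tie1 and Cdh11, all of which other lung cells also express.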

How the data were processed

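Per the submitters' processing notes, the authors used GCRMA, and the deposited values are on the log2 scale. GCRMA corrects the background, scales the arrays to each other and summarises each probe set; its version is not stated in the labels. No further transformation was applied. Gene symbols came from the platform annotation. Array medians lay between 5.70 and 5.87, with 13088 to 13319 of 22690 probe sets above 4. Precision is limited by the 5 arrays per group.

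Each gene was represented by its brightest probe set naming 1 gene. Genes with a log2 value above 4 in at least 5 of 20 arrays were tested, 8068 in all. Group means were fitted with limma 3.58.1 in R 4.3.3 (lmFit and eBayes, two-sided, Benjamini-Hochberg over all genes tested), for 5 contrasts, and called at an adjusted p under 0.05. Further probe sets were fitted over the 13510 probe sets that passed. Errors of differences are limma standard errors. Plots used matplotlib 3.10.9 (Python 3.11.15).

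On simulated data of 8068 genes at E18.5, 93% of changes of log2 1 and 68% of log2 0.5 were called. Of the calls made there, 6.40% were false. The changed genes were drawn at random, and most members vary more within a group than a typical gene. These shares therefore need not hold for the members. No 2 arrays were identical. The members and lists were chosen with earlier results of these data known. Genes named are Nr3c1, the members, up to 3 called genes with the largest change per heart, skeletal or smooth muscle list (1 as a value where none was called), and the 10 genes most like the members. The labels do not say that a replicate number marks a shared litter or day, and same-numbered arrays deviated together in part only: of 30 correlations, from -0.43 to 0.60, 15 were over 0.1, so the numbers were not taken to pair the arrays. Alternatives were normalization, filter, probe set choice, fitted arrays, variance model, array weights, sex, replicate block, threshold, each array left out, the arrays with Acta1 above 4 left out, and Myl4 as a covariate, the last 2 chosen after seeing the data.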

Additional observations from a re-analysis of the deposited data

Results flagged for a closer look

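Of 36 checks of a member in a group of 5 animals, 3 found an animal far from the others, by a gap to its nearest neighbour that took more than 0.71 of the group's range; chance alone flags about 1 group in 20. Myl3 in E18.5 GR ablation 5 was high, at 6.94 against 5.35 to 5.72 in the other 4 (gap 0.767 of the range). Tnni3 in E18.5 control 3 was low, at 6.52 against 7.78 to 8.17 (gap 0.763), and so was Ryr2 in the same animal, at 4.45 against 5.67 to 5.98 (gap 0.798). That array also carries the skeletal muscle genes and keratins given above, and their part was not tested.

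The effect of GR ablation on Smpx differed between the stages, by 1.40 on the log2 scale in limma's interaction test (SE 0.17, adjusted p 4.63e-05). All 5 E18.5 GR ablation lungs were above all 5 E18.5 controls, while the E16.5 groups overlapped.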

How the results depend on the processing

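At E18.5 the calls of Smpx, Myl2, Myl3 and Ryr2 in GR ablation against control held in every alternative that tested them; the count was 2 with the mean over probe sets, where Myl3 and Ryr2 fell under the filter, 6 with the 10 arrays of E18.5 alone, 6 with Myl4 as a covariate (a gene picked for following the members) and 4 whenever 1 array was left out. In controls between the stages, the count was 2 with Myl4 as a covariate; Actc1 lost its call without the filter, with median centring, with the 10 control arrays alone, with array weights, at a threshold of 0.01, without the 3 arrays with Acta1 above 4, and without any of E18.5 controls 2 and 3 and E16.5 controls 2, 3 and 5 (adjusted p 0.0517 to 0.0960 for these 5). In GR ablation between the stages, the count was 7 with the 10 GR ablation arrays alone, 7 with the replicate number as a block and 6 with array weights. It was 2 with the mean over probe sets, 2 at a threshold of 0.01, 3 with Myl4 as a covariate and 2 to 7 with 1 array left out. With 1 array left out, the lowest count came without E18.5 GR ablation 5, where Myh6 (1.42), Tnni3 (1.30) and Ryr2 (0.76) lost their calls. The interaction count was 3 with array weights (Myl2 1.58, Ryr2 -1.47 and Smpx), 3 without the 3 arrays with Acta1 above 4, and 1 to 2 with 1 array left out, where Ryr2 passed without E18.5 GR ablation 3 or 5 or E18.5 control 3, Myl3 without E18.5 control 2 and Myl2 without E18.5 control 4. All-gene interaction calls were 678, with 2244 by array weights, 403 with sex, 1102 without the 3 arrays, 166 at the 0.01 threshold, and 393 to 1445 with 1 array left out. Array numbers are labels only, and the fit with the replicate number as a block gave an interaction count of 2, Ryr2 passing at -1.31 (adjusted p 0.0408). At E16.5 all values that changed sign were uncalled. Those were Myh6 with quantile normalization (-0.015) and median centring (-0.010); Myl7 (-0.32), Myh6 (-0.30) and Tnni3 (-0.19) with array weights; Myl3 (0.13), Myh6 (-0.43), Actc1 (0.12) and Tnnt2 (0.058) with sex in the fit; Myl7 (-0.13), Myh6 (-0.26) and Tnni3 (-0.000333) without the 3 arrays; and Myl7 (-0.080) and Myh6 (-0.15) with Myl4. With 1 array left out, E16.5 values ran from -0.21 to 0.19 for Actc1, -0.37 to 0.53 for Myh6, -0.17 to 0.44 for Myl7, -0.15 to 0.11 for Ryr2, -0.00589 to 0.85 for Tnni3 and -0.25 to 0.35 for Tnnt2. With Myl4, picked for following these genes, stage differences turned negative for Myl7 (-0.14) and Actc1 (-0.18) in controls. In GR ablation lungs they did so for Myl7 (-0.26), Actc1 (-0.30), Tnnt2 (-0.24) and Tnni3 (-0.10). In the interaction, Actc1 was at 0.077 with array weights, and Myh6 at 0.21 with sex and at -0.86 to 0.046 with 1 array left out. Except where a construction is named, the cause was not tested. Dim values limit the sizes for Myl2, Myl3 and Ryr2.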

Other observations

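All 9 thymus genes on the array were dim on all 20 arrays. The summed linear level of 7 red cell genes had a median of 2060 in E18.5 GR ablation lungs and 3527 in E18.5 controls, with the highest control, E18.5 control 3, at 8229; 2 of the 4 tested fell in limma. The 9 liver genes summed to 64.2 to 315 in E18.5 GR ablation lungs and 77.4 to 436 in E18.5 controls, and neither of the 2 tested was called.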
